A study of Mus musculus with 6 samples.

Results

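The genes of the mitochondrial protein import machinery were examined in bulk RNA-seq of mouse hematopoietic stem and progenitor cells (HSPCs) with and without the chromatin reader ING4. Members were chosen by gene symbol alone, as protein-coding genes named Timm or Tomm, together with Samm50, the metaxins, the subunits of the matrix processing peptidase, the Grpel nucleotide exchange factors, Pam16, Chchd4 and the inner membrane peptidase subunits. The rule found 38 of the 49315 genes counted, and no measured value entered it. Within the LSK CD48- gate, CD150+ cells were sorted as LT-HSCs where CD34- and as ST-HSCs where CD34+, and CD150- CD34+ cells as MPPs, all from lineage-depleted bone marrow of young adult WT C57BL/6 mice and of ING4-/- mice, a knockout line kept as its own colony. LSK cells are negative for lineage markers and positive for Sca1 and cKit. No treatment is named for either genotype. Each of the 6 libraries came from marrow pooled over several mice, with 1 library per population and genotype, so that the 3 populations stood in for replicates of a genotype. The p-values therefore measure the spread between these libraries and not between animals.

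Most mitochondrial proteins are encoded in the nucleus, made in the cytosol and imported through the TOM complex of the outer membrane. From there the small TIM chaperones carry hydrophobic precursors across the intermembrane space to the SAM complex, which inserts beta-barrel proteins into the outer membrane, or to the TIM22 complex, which inserts metabolite carriers into the inner membrane. Precursors with a cleavable presequence pass instead through the TIM23 complex, are pulled in by an ATP-driven motor and are cut by the processing peptidase, and small cysteine-rich proteins are trapped in the intermembrane space by the oxidoreductase CHCHD4. Stem cells of the marrow are known for a largely glycolytic resting metabolism, and progenitors rely more on mitochondrial respiration.

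The small TIMs are also the members with a shared signature that can be read in the sequence. Each carries 2 cysteine pairs of the form CX3C, which close into disulfide bonds in the intermembrane space. The stretch from the first cysteine codon to the last is shown for the 7 small TIM genes, 5′ to 3′ on the coding strand, with the cysteine codons in capitals, taken from the GENCODE M21 transcripts on GRCm38. The bases between the pairs differ in number, encoding 14 residues in Timm8a1, Timm8a2, Timm8b and Timm13, 15 in Timm9 and Timm10b, and 16 in Timm10. The genomic ranges of Timm8a1, Timm9, Timm10b and Timm13 span an intron.
Timm8a1 (chrX:134538202-134541462, minus strand): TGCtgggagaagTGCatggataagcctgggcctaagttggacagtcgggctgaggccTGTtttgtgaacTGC
Timm8a2 (chr14:122034813-122034884, plus strand): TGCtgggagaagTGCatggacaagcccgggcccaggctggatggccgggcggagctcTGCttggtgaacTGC
Timm8b (chr9:50604954-50605025, plus strand): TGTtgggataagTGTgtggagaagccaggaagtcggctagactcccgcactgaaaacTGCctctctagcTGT
Timm13 (chr10:80900242-80900535, minus strand): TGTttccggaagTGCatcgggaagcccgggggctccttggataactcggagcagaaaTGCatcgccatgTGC
Timm9 (chr12:71123666-71125515, minus strand): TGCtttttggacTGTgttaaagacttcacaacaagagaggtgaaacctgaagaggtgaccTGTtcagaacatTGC
Timm10 (chr2:84829803-84829880, plus strand): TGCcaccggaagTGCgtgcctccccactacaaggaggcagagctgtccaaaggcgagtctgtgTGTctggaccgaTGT
Timm10b (chr7:105640804-105641048, plus strand): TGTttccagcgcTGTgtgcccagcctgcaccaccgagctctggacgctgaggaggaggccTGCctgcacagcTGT

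The libraries of the 2 genotypes differed in depth and in background. Total counts were 7839326 to 9363442 in WT and 35596876 to 39192588 in ING4-/-. Counts on 1915 olfactory and vomeronasal receptor genes, which blood cells are not known to use, lay at 18.3 to 22.9 per kb of exon in WT and at 0.0452 to 0.0800 per kb in ING4-/-. Spread over all exons, that density would account for 22.8% to 33.7% of WT counts and at most 0.0263% of ING4-/- counts. In order of LT-HSCs, ST-HSCs and MPPs, the WT libraries held 247, 162 and 247 counts of Ing4 and the ING4-/- libraries 0, 24 and 76, a log2 fold change of -4.49 ± 1.56 (SE, adjusted p = 0.0373, and 0.0783 with the populations as a block). Its call was lost without any 1 of the WT libraries or the ING4-/- ST-HSC library (adjusted p = 0.0660 to 0.0830). Of the 4 sort markers Kit, Ly6a, Cd34 and Slamf1, none was at 0 in any library, and their summed level was 729 to 1504 CPM in WT and 1344 to 2734 CPM in ING4-/-. Cd48, which the gate leaves out, was at 5.27, 16.6 and 36.9 CPM in WT and at 0, 34.1 and 127 CPM in ING4-/- (LT-HSCs, ST-HSCs, MPPs). Summed erythroid markers lay at 28.4 to 52.1 CPM in WT and 108 to 217 CPM in ING4-/-, and granulocyte and monocyte markers at 97.4 to 326 and 368 to 663 CPM. T and NK cell markers summed to 54.3 to 128 and 26.9 to 267 CPM, and megakaryocyte markers to 174 to 327 and 271 to 1056 CPM. The 5 B cell markers Cd79a, Cd79b, Ms4a1, Vpreb1 and Ebf1 summed to 80.0 to 95.8 CPM in WT and 66.6 to 125 CPM in ING4-/-, where Cd79a, Ms4a1 and Ebf1 were at 0 in every library while Cd79b was called higher (1.60 ± 0.31). The erythroid marker Alas2 and the T and NK cell markers Cd3e, Cd3g, Cd8a and Gzma were also at 0 in every ING4-/- library, so that in these libraries 4 or 5 of 6 T and NK cell markers were at 0. The part of depth, background and other cells in the results was not tested, and in bulk RNA fewer cells of a type cannot be told apart from less RNA per cell.

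The comparison of the 3 ING4-/- with the 3 WT populations asked how the transcriptome of HSPCs differs without ING4. Most import genes were higher in ING4-/- libraries. Of the 38 members, 37 passed the filter on low counts, and 24 were called higher and 1 lower by the limits used here, adjusted p below 0.05 with a log2 fold change beyond 1 in either direction (edgeR quasi-likelihood test, Benjamini-Hochberg adjustment over all genes). Over all 31001 genes tested, 64.6% were called, with 56.7% below and 7.98% called higher, and their median was -6.85 on the log2 scale, against a member median of 1.23. That set holds many genes without a count in ING4-/-, where 14680 to 16188 genes had a count, against 36082 to 41763 in WT. In the 9673 genes that held 10 or more counts in each library, called well-counted genes from here on, 24.3% were called higher and the median was 0.52, while 24 of the 34 members in that set were called higher with a median of 1.34. The groups did not overlap for 30 of 37 members, against 74.9% of all genes tested and 49% of well-counted genes. Together the 38 genes took 0.189%, 0.190% and 0.206% of all WT counts (LT-HSCs, then ST-HSCs, then MPPs), and 0.332%, 0.424% and 0.375% in ING4-/-.

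The size of these differences depended on the scaling and on the background. The median over all genes moved from -6.85 with TMM factors to -7.17 with DESeq2 size factors and to -6.35 with upper-quartile factors, and the members' median moved with it to 0.87 and 1.83. With only the 9673 well-counted genes in the fit, the all-gene median was 0.02, the member median 0.82, and 13 members were called higher against 8.3% of genes. With the background density subtracted from every count, 11 members were called higher against 5.64% of genes and the member median was 0.73, and with 10 or more counts left in each library 8 members were called higher against 3.98%. In a fit on protein-coding genes alone it was 14 members against 6.17%. With the trend on gene length removed, 4 members were called higher (Tomm7, Tomm20, Timm8b and Timm17b) against 4.65% of genes, with a member median of 0.49.

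**Figure D1:**
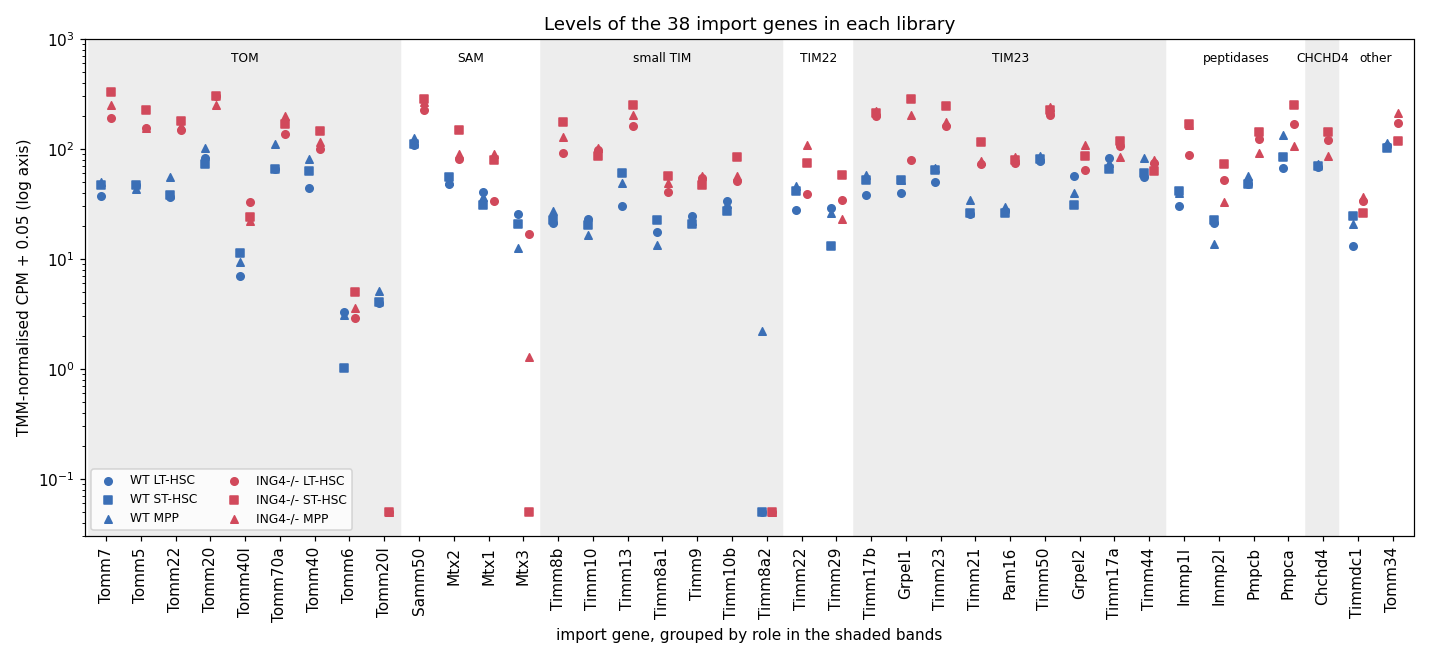
TMM-normalised CPM plus 0.05 (log axis) of the 38 import genes in each of the 6 libraries, WT in blue and ING4-/- in red, with circles for LT-HSCs, squares for ST-HSCs and triangles for MPPs, grouped by role. The red points lie above the blue for most genes, Tomm20l is at 0 in every ING4-/- library, and Timm8a2 has counts only in WT MPPs.

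Among the receptors and pore of the outer membrane, 6 of 9 TOM genes rose and 1 fell, with a median of 1.52. The 9 genes have a median length of 1131 exonic bases. With the length trend removed, the median of those well-counted was 0.67. Beside these and the counts by complex below, 24.3% of well-counted genes and 7.98% of all genes tested were called higher. Tomm7 (chr5:23838944-23844161), a small subunit that also helps to hold the kinase PINK1 at the outer membrane, had 37.0, 46.6 and 49.6 CPM (read counts scaled to a common library size with TMM factors) in WT, in the order LT-HSCs, ST-HSCs and MPPs that is kept from here on, and 193, 326 and 249.7 CPM in ING4-/-. Every ING4-/- library was above every WT library, and the log2 fold change of 2.53 ± 0.27 (SE, adjusted p = 0.000657) was the highest of the members. Tomm20 (chr8:126930667-126945844), a receptor for presequences, had 82.7, 72.1 and 101 CPM in WT and 300.0, 301 and 251 CPM in ING4-/-, a change of 1.74 ± 0.21 with no overlap. Tomm22, the central receptor, had 36.2, 38.0 and 55.8 CPM in WT and 149.6, 181 and 163 CPM in ING4-/-, a change of 1.92 ± 0.26. Tomm5, another small subunit, rose by 1.96 ± 0.24 from 43.2 to 47.1 CPM in WT to 154 to 227 CPM. These 4 were called higher in 20 or more of 21 alternative analyses. Tomm70a, the receptor for carrier precursors, rose by 1.07 ± 0.29, just over the fold limit, and was under it without the WT LT-HSC library (0.92), the WT ST-HSC library (0.91) or the ING4-/- MPP library (0.96).

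Tomm40, the beta-barrel channel, had 43.9, 62.4 and 80.1 CPM in WT and 99.2, 144 and 117 CPM in ING4-/-. The groups did not overlap, but the change of 0.95 ± 0.30 (adjusted p = 0.0244) was under the fold limit, and Tomm40 was called higher without the ING4-/- LT-HSC library (1.10) or the WT MPP library (1.03). Its paralog Tomm40l was called higher at 1.52 ± 0.47, but from 66, 104 and 94 WT counts, close to or below what the background density would give, and 64.3% of its exonic bases lie opposite an exon of Nr1i3. Its call was lost with the populations as a block (adjusted p = 0.147) and without any 1 of the WT libraries (adjusted p = 0.0792 to 0.113). Tomm6, a small subunit, had 9 to 31 counts in WT, also at the background density, and 90 to 156 in ING4-/-, and was not called (0.64 ± 0.61). It shares 76.0% of its exonic bases with an overlapping same-strand gene, which makes its counts uncertain. Tomm20l, a paralog of Tomm20, was the member that fell, with 37, 37 and 52 counts in WT and 0 in each ING4-/- library. Taking 3 counts per library as the limit that a count of 0 allows, its mean WT level as deposited was 46.5-fold above that limit. No background was taken off for that ratio, and the background density corresponds to 30.2% of its WT counts. The ratio is therefore not a lower bound on the change.

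In the SAM complex, Samm50 and Mtx2 rose and 2 of 4 genes were not called. Samm50, the channel that folds beta-barrel proteins into the outer membrane, had 107, 112 and 127 CPM in WT and 227, 282 and 265 CPM in ING4-/-, a change of 1.16 ± 0.18 (adjusted p = 0.00102). The WT libraries lay close together and below every ING4-/- library. Mtx2, a metaxin, rose by 1.04 ± 0.30. Its call ended with the populations as a block, where its adjusted p was 0.0369 but the fold fell under the limit, and without the WT LT-HSC library (0.94, adjusted p = 0.0587), the WT MPP library (0.89, adjusted p = 0.0755) or the ING4-/- ST-HSC library (0.75). Mtx1 stood at 30.6 to 40.9 CPM in WT and at 33.2, 79.0 and 90.6 CPM in ING4-/-, so that the groups overlapped through the ING4-/- LT-HSC library, without which it was called higher (1.26, adjusted p = 0.00527). Mtx3 had 241, 192 and 128 counts in WT, of which 71.4% is what the background density would give, and 530, 0 and 42 counts in ING4-/-, and was not called (-1.69 ± 1.78) except without the ING4-/- LT-HSC library, where it was lower (-4.93, adjusted p = 0.0304).

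**Figure D2:**
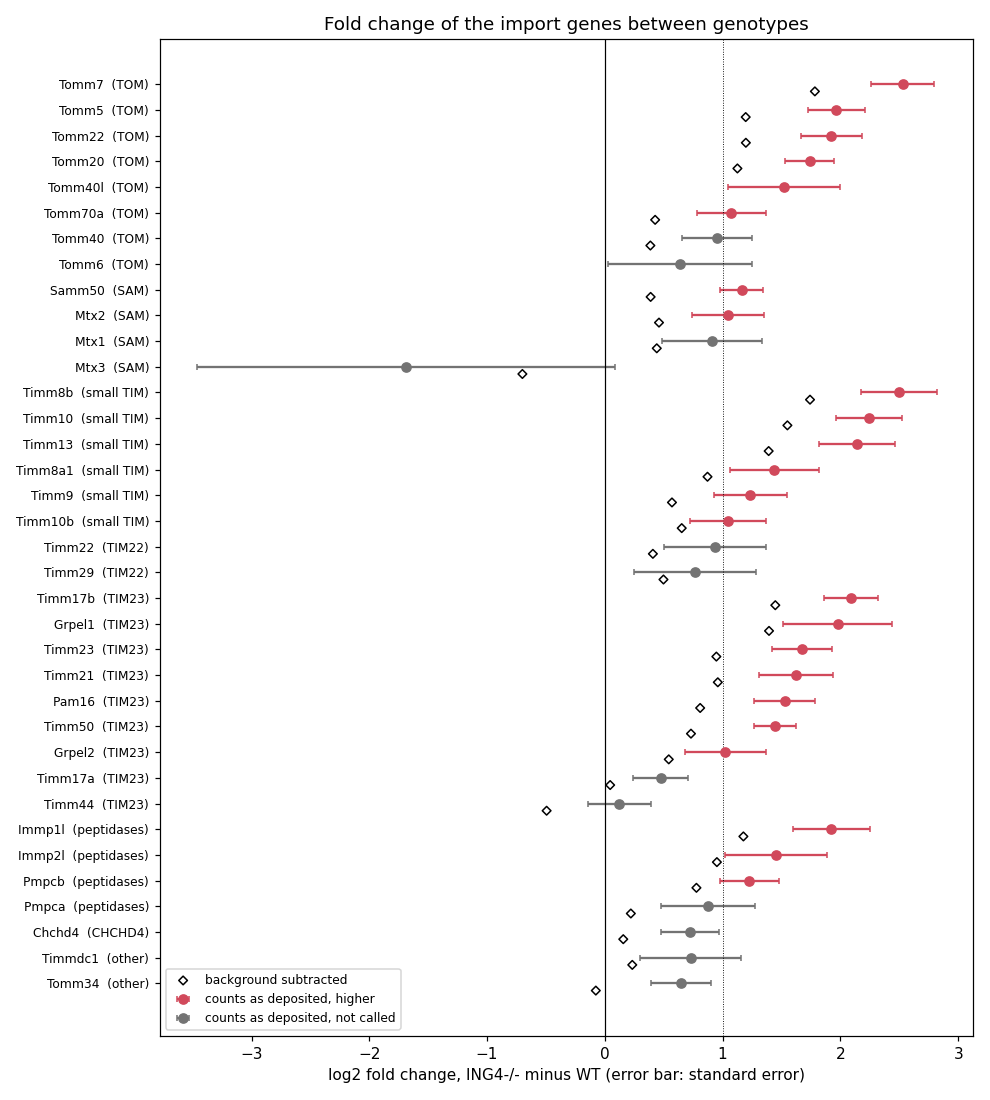
Log2 fold change of ING4-/- minus WT with its standard error for 36 import genes, grouped by role, red where called higher and grey where not called, and open diamonds for the fit on background-subtracted counts. Tomm20l (0 in ING4-/-) is left out, as are the diamonds of Tomm40l and Tomm6, whose WT counts are at background. The diamonds sit to the left of the circles for all but Mtx3.

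All 6 small TIMs that could be tested rose, with a median of 1.79, against 24.3% of well-counted genes. The 7 small TIM genes are short, with a median of 1018 exonic bases. With the length trend removed the median of those tested was 0.65, and of the small TIMs only Timm8b was called. Timm8b (chr9:50603910-50605320), a partner of Timm13 in the minor chaperone complex, had 21.1, 22.3 and 27.3 CPM in WT and 91.9, 177 and 129 CPM in ING4-/-, a change of 2.49 ± 0.32 (adjusted p = 0.000657). Timm13 had 30.4, 59.8 and 49.3 CPM in WT and 161, 251 and 203 CPM in ING4-/-, a change of 2.14 ± 0.32. Timm10, a subunit of the major complex with Timm9, had 23.2, 20.5 and 16.4 CPM in WT and 96.7, 86.2 and 101 CPM in ING4-/-, a change of 2.24 ± 0.28. In none of the 3 did the genotypes overlap. Timm9, the other subunit of that complex, rose by 1.23 ± 0.31, from 20.6 to 24.3 CPM to 46.4 to 56.6 CPM, and lost its call without the WT ST-HSC library (adjusted p = 0.0696) or the WT MPP library (adjusted p = 0.0516).

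The remaining small TIMs were closer to the limits. Timm8a1, the mouse counterpart of the gene of deafness-dystonia syndrome and the other partner of Timm13, rose by 1.44 ± 0.38 from 13.3 to 22.7 CPM to 40.1 to 56.1 CPM, and lost its call without the WT LT-HSC library (adjusted p = 0.0516) or the WT MPP library (adjusted p = 0.0574). Timm10b, which docks the chaperones on the TIM22 complex, rose by 1.05 ± 0.32, and its call was lost with the populations as a block (adjusted p = 0.0746), without any 1 of the WT libraries (adjusted p = 0.0530 to 0.106) and without the ING4-/- ST-HSC library (adjusted p = 0.0711). Timm8a2, a paralog of Timm8a1 whose CX3C stretch lies in 1 exon, had 22 counts in WT MPPs and 0 in the other 5 libraries and did not pass the filter.

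Neither of the 2 TIM22 genes, whose median length is 3176.5 exonic bases, was called. Timm22, the pore for carriers, had 27.8, 41.3 and 45.6 CPM in WT and 38.9, 73.6 and 108 CPM in ING4-/-, so that the ING4-/- LT-HSC library lay among the WT values (0.94 ± 0.43, adjusted p = 0.0962), and without it Timm22 was called higher (1.27, adjusted p = 0.0114). Timm29, an accessory subunit, stood at 13.1 to 29.0 CPM in WT and at 34.3, 58.2 and 22.8 CPM in ING4-/- (0.76 ± 0.52).

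In the presequence translocase and its motor, 7 of 9 genes rose, against 24.3% of well-counted genes. Their median was 1.53, and 0.61 with the length trend removed. Timm17b (chrX:7899357-7908351), 1 of the 2 alternative TIM17 subunits of the channel, had 38.1, 51.9 and 57.7 CPM in WT and 197, 209.9 and 221 CPM in ING4-/-, a change of 2.09 ± 0.23 (adjusted p = 0.000657). The other, Timm17a (chr1:135295213-135313778), had 82.2, 65.6 and 74.2 CPM in WT and 105, 118 and 84.5 CPM in ING4-/- and was not called (0.47 ± 0.23, adjusted p = 0.115). Both were non-overlapping between genotypes, but at different distances. In the fit limited to well-counted genes both were lower, Timm17a at -0.04 and Timm17b at 1.59, against 0.47 and 2.09 over all genes tested.

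Timm23, the other channel subunit, had 49.6, 64.6 and 67.5 CPM in WT and 161, 245 and 175 CPM in ING4-/-, a change of 1.68 ± 0.26. It has 5 near-identical copies in the genome, the closest 99.9% identical over 95.6% of the transcript, so reads may be split or lost between them. The copies together held 23 to 34 counts per library, against 471 to 7748 on Timm23. Timm50, the receptor that hands presequences to the channel, had 77.7, 81.2 and 86.5 CPM in WT and 202, 227 and 239 CPM in ING4-/- (1.44 ± 0.18, adjusted p = 0.000657). Timm44, which tethers the motor to the channel, had 55.0, 60.8 and 82.7 CPM in WT and 73.9, 63.2 and 79.1 CPM in ING4-/- and was not called (0.12 ± 0.27, adjusted p = 0.715). Its sign turned negative in 10 alternative analyses, in several of which the member median also fell (from 1.23 to 0.87 with DESeq2 size factors). Pam16 rose by 1.53 ± 0.26, Grpel1, the nucleotide exchange factor of mitochondrial HSP70, by 1.98 ± 0.46, and Timm21, which links the channel to the TOM complex, by 1.62 ± 0.32. Grpel1 stood at 79.0 CPM in ING4-/- LT-HSCs and at 285 and 203 CPM in ING4-/- ST-HSCs and MPPs, against 39.6 to 52.4 CPM in WT. Its stress-linked paralog Grpel2 was called higher at 1.02 ± 0.34, a call lost with the populations as a block (adjusted p = 0.0667) and without the WT ST-HSC library (adjusted p = 0.144), the WT MPP library (adjusted p = 0.127), the ING4-/- ST-HSC library (adjusted p = 0.0534) or the ING4-/- MPP library (adjusted p = 0.0881).

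Of the 4 peptidase genes, 3 rose, against 24.3% of well-counted genes. Immp1l, a catalytic subunit of the inner membrane peptidase, had 30.1, 41.1 and 39.9 CPM in WT and 88.4, 169 and 164 CPM in ING4-/-, a change of 1.92 ± 0.33 (adjusted p = 0.00137). Immp2l, the other catalytic subunit, rose by 1.45 ± 0.43, and lost its call without any 1 of the WT libraries (adjusted p = 0.0600 to 0.0931) or without the ING4-/- ST-HSC library (adjusted p = 0.0606). Pmpcb, the catalytic subunit of the matrix processing peptidase, rose by 1.23 ± 0.25, from 47.5 to 56.5 CPM to 91.4 to 142 CPM. Pmpca, its partner subunit, was not called (0.88 ± 0.40, adjusted p = 0.0899), and the genotypes overlapped, with 67.0, 83.9 and 134 CPM in WT and 168, 249.0 and 105 CPM in ING4-/-. Without the ING4-/- MPP library it was called higher (1.16, adjusted p = 0.0299).

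The oxidoreductase Chchd4 had 67.8, 70.4 and 72.6 CPM in WT and 119.8, 141 and 86.7 CPM in ING4-/-. No values overlapped, but the change of 0.72 ± 0.25 (adjusted p = 0.0357) was under the fold limit. Tomm34, a cytosolic cochaperone for precursors, and Timmdc1, an assembly factor of respiratory complex I, carry import names without being part of a translocase, and neither was called (0.64 ± 0.26 and 0.73 ± 0.43).

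Levels of different members were compared per kb of exonic length. In WT the highest mean levels were those of Samm50 (68.8 ± 6.05 CPM per kb, SD, n = 3), Tomm5 (52.6 ± 2.52) and Timm8b (45.4 ± 6.35), followed by Tomm7 (39.5 ± 5.89), Tomm22 (39.0 ± 9.74), Immp1l (38.8 ± 6.32) and Timm13 (37.9 ± 12.1), and Tomm7 to Timm13 lay within each other's SD. In ING4-/- the order was Timm8b (256 ± 82.2 CPM per kb), Tomm7 (228 ± 59.5), Tomm5 (205 ± 48.3), Timm13 (167 ± 36.9) and Samm50 (154 ± 17.0), and the SDs of neighbours overlapped. Among the well-counted members the lowest in WT was Tomm40l, at 1.78 CPM per kb.

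Ratios of members that work together were formed within each library, which removes the scaling between libraries. The 12 pairs were chosen after their values were seen, and with 3 against 3 libraries an exact two-sided permutation test cannot give a p under 0.1 (0.15 after adjustment over the 12), so no pair could pass. The Timm17b to Timm17a log2 ratio per exonic base was 0.52, 1.29 and 1.26 in WT and 2.53, 2.45 and 3.01 in ING4-/-, a difference of 1.64 (exact p = 0.1). The TIM17 pair thus stood further toward Timm17b in every ING4-/- library than in any WT library. Tomm7 to Tomm40 was 1.76, 1.58 and 1.31 in WT and 2.96, 3.18 and 3.10 in ING4-/-, a difference of 1.53. Timm50 to Timm44 was 0.95, 0.87 and 0.51 in WT and 1.90, 2.29 and 2.04 in ING4-/-, a difference of 1.30. The partners of the major small TIM complex also differed, with a Timm10 to Timm9 ratio of 0.25, 0.31 and -0.10 in WT and 1.15, 1.21 and 1.16 in ING4-/-, a difference of 1.02. These 4 pairs and Tomm22 to Tomm40 (a difference of 0.97) kept the genotypes apart after background subtraction. Timm8b to Timm8a1 (0.99), Timm13 to Timm8a1 (0.71) and Tomm20 to Tomm40 (0.77) did so only in the counts as deposited. The members of a pair also differ in length, and in the fit with the length trend removed the log2 fold changes of Timm17b and Timm17a were 1.24 and 0.66, a gap of 0.58, and the gap of Tomm7 to Tomm40 was 0.73, of Tomm22 to Tomm40 0.14, of Timm50 to Timm44 1.09 and of Timm10 to Timm9 1.01. The genotypes overlapped for Grpel1 to Grpel2 (0.76, exact p = 0.3), Tomm40l to Tomm40 (0.55, exact p = 0.2), Immp1l to Immp2l (0.46, exact p = 0.6) and Pmpcb to Pmpca (0.36, exact p = 0.3).

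**Figure D3:**
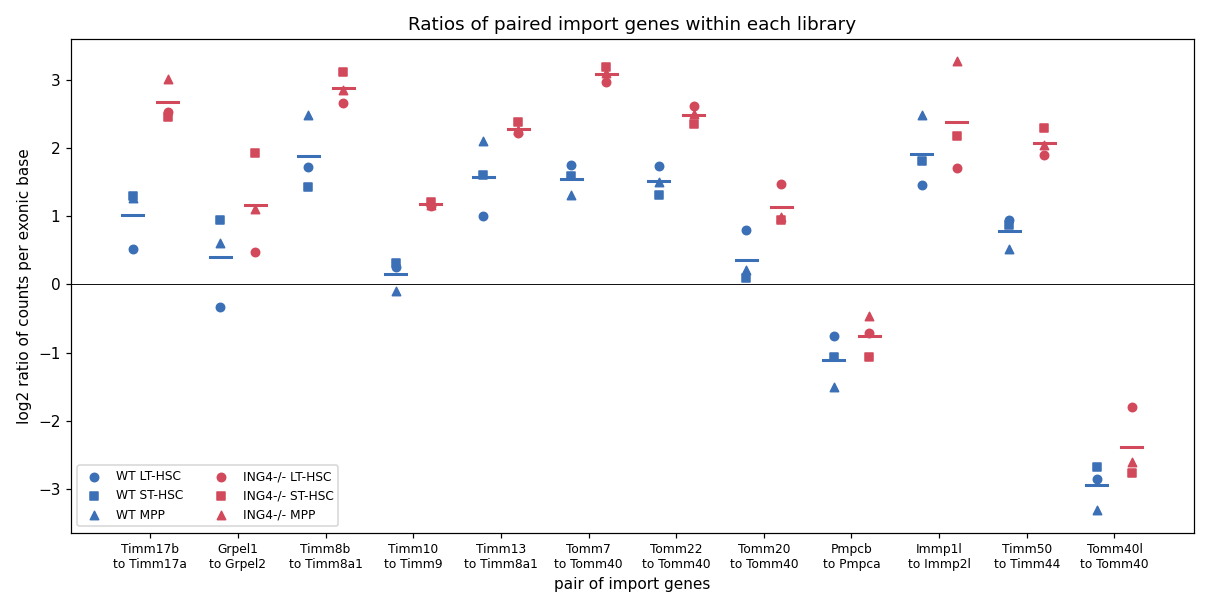
Log2 ratio of counts per exonic base for 12 pairs of import genes within each library, WT in blue and ING4-/- in red, with symbols for the populations and a bar at the mean of the 3 libraries. The genotypes are apart for 8 pairs, the farthest for Timm17b to Timm17a with a difference of 1.64, and overlap for the other 4.

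Shorter import genes tended to differ more. Of the 13 members of at most 1500 exonic bases, 11 were called higher with a median of 1.92, of the 12 members over 1500 and up to 3600 bases 7 with a median of 1.11, and of the 12 longer ones 6 with a median of 0.99. Over well-counted genes of all lengths 24.3% were called higher, and the share within each length class was not counted. Across the 37 members tested, Spearman's rho of log2 fold change and length was -0.48, and across the 9673 well-counted genes it was -0.51. After background subtraction the values were -0.44 and -0.43. Genes within a library are not independent replicates, and these are descriptions. With the 9673 genes divided by length into 10 bins of equal number, the median ran from 1.39 in the shortest to -0.77 in the longest, a fall with length over all these genes as over the members. Tomm20, at 4906 bases, and Timm17b, at 2557, were among the 4 members still called with the length trend removed.

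**Figure D4:**
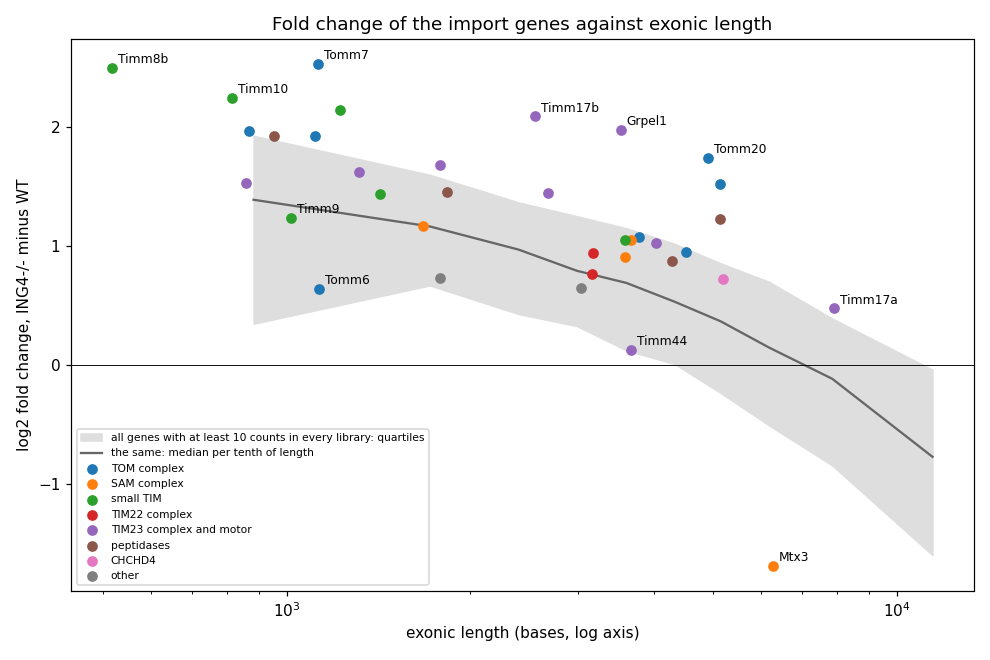
Log2 fold change of ING4-/- minus WT against exonic length (bases, log axis) for 36 import genes coloured by role, with the median (line) and quartiles (band) of well-counted genes (10 or more counts in each library) in 10 bins of length. Both fall with length, and Timm17b, Grpel1 and Tomm20 are among the members above the band at their lengths.

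The deposited counts leave some members uncertain because their exons overlap others, and the strand setting of the counting is not given in the sources used here. Beside Tomm6 and Tomm40l, an exon on the opposite strand covers 30.1% of the exonic bases of Mtx1, 20.4% of Pmpca, 18.7% of Pam16, 15.6% of Timm8b, 11.6% of Grpel1 and 11.6% of Timm10b. Timm10b also shares 10.5% with a gene on its own strand, and Timm23 shares 5.82%. Immp1l and Timm8a1 each have 1 near-identical copy, which covers 52.3% and 43.1% of the transcript. Of the 11 members called higher after background subtraction, Tomm40l is 1 whose WT counts are removed almost entirely, and the other 10 are Tomm5, Tomm7, Tomm20, Tomm22, Timm8b, Timm10, Timm13, Timm17b, Grpel1 and Immp1l.

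Within each population, which had 1 library per genotype and so no test, 30 of 37 members were higher in ING4-/- in all 3. The median log2 ratio of the members was 1.18, 1.56 and 1.24 in the order above. Among well-counted genes 44.7% were higher in all 3, with medians of 0.55, 0.59 and 0.37, and among all genes tested 4638 of 31001 were. Timm8b stood at 2.12, 2.98 and 2.24, Tomm7 at 2.38, 2.80 and 2.33, and Timm17b at 2.37, 2.01 and 1.94. Those 3 were far from 0 in every population. Grpel2 was near 0 in LT-HSCs (0.19) and at 1.45 and 1.46 in ST-HSCs and MPPs, and Chchd4 stood at 0.82 and 1.00 in LT-HSCs and ST-HSCs and at 0.26 in MPPs.

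**Figure D5:**
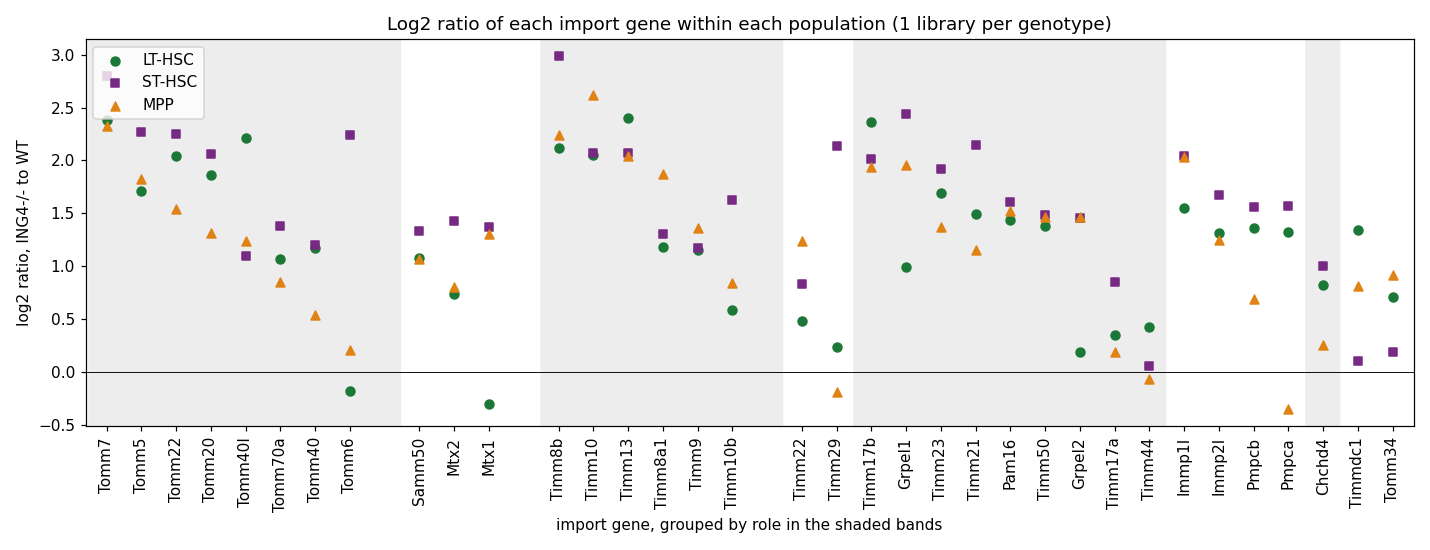
Log2 ratio of ING4-/- to WT within LT-HSCs (circles), ST-HSCs (squares) and MPPs (triangles) for 35 import genes grouped by role, each point from 1 library per genotype. Tomm20l, at 0 in every ING4-/- library, Mtx3, at 0 in ING4-/- ST-HSCs, and Timm8a2, not tested, are left out. The log2 ratios of Mtx3 were -0.58, -7.77 and -3.25 (LT-HSCs, ST-HSCs, MPPs), and those of Tomm20l also lay below 0 in every population. Most points lie above 0, and Mtx1 and Tomm6 in LT-HSCs and Timm29, Timm44 and Pmpca in MPPs lie below it.

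Along the series from stem cell to progenitor, MPPs were compared with LT-HSCs over both genotypes, with genotype as a term. No member was called, and neither was any of the 36170 genes tested (0% called, edgeR). At an unadjusted p under 0.05 there were 564 genes and 1 member, Timm22 (1.09 ± 0.43 higher in MPPs, unadjusted p = 0.0457). DESeq2 called 433 genes and no member. The members' median of MPP minus LT-HSC was 0.20, with 26 of 37 positive, and the all-gene median was 0.094. After Timm22 the members highest in MPPs were Grpel1 (0.83 ± 0.41) and Tomm70a (0.66 ± 0.28), and the lowest was Mtx3 (-3.13 ± 2.52). None of them passed the adjusted test, and 2 libraries per population leave intervals too wide to show that the levels were alike.

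The proteins that work with these translocases, or pass through them, were described from lists written by hand. Every gene on these lists was a well-counted gene, a set with 24.3% called higher and a median of 0.52. Over all genes tested 7.98% were called higher and 56.7% lower. Of 26 partners outside the symbol rule, 12 rose and 0 fell, with a median of 1.27. The highest were Romo1 (2.43 ± 0.35), a small inner membrane protein of the TIM23 complex, the matrix cochaperonin Hspe1 (2.28 ± 0.38) and Dnajc15 (2.13 ± 0.31), a J protein of the motor. The lowest were the peptidase Xpnpep3 (-0.38 ± 0.48), Immt (-0.19 ± 0.36), the core of the cristae junction complex, and Apool (-0.01 ± 0.37), none of them called. Of 10 metabolite carriers, clients of the TIM22 route, 6 rose, with a median of 1.23, from the adenine nucleotide translocases Slc25a4 (1.60 ± 0.16) and Slc25a5 (1.56 ± 0.27) and the dicarboxylate carrier Slc25a10 (1.50 ± 0.34) down to Slc25a12 (0.39 ± 0.35), Slc25a13 (0.63 ± 0.49) and Slc25a22 (0.67 ± 0.30), which were not called. Of the 3 voltage-dependent anion channels, clients of the SAM complex, Vdac3 (1.39 ± 0.22) and Vdac2 (1.34 ± 0.25) rose and Vdac1 stayed under the fold limit (0.89 ± 0.19).

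The third group of clients depends on CHCHD4. The 14 twin CX9C proteins are folded by the oxidoreductase and serve mainly in the respiratory chain and its assembly. Chchd4 itself, at 5192 exonic bases, was not called. All 14 of the proteins were called higher, with a median of 1.82, against 24.3% of well-counted genes, whose median was 0.52. Among the 14 proteins, Coa6 (2.69 ± 0.50), Coa4 (2.47 ± 0.47) and Triap1 (2.18 ± 0.36) had the highest log2 fold changes, and Chchd10 (1.28 ± 0.39), Cox17 (1.34 ± 0.35) and Cox19 (1.45 ± 0.35) the lowest. After background subtraction 9 of the 14 were still called higher, against 7 of the 26 partners, 0 of the 10 carriers and 0 of the 3 channels. In that fit 5.64% of all genes were called higher. With the length trend removed it was 1 of 14 (Ndufb7), against 3 of 26, 1 of 10 and 1 of 3, and 4.65% of well-counted genes. With the populations as a block 12 of 14 were called, without Chchd10 (adjusted p = 0.0895) and Cmc2 (adjusted p = 0.0736). Ndufb7 and Cmc2 are named after their values were seen.

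Promoters of the members were searched for short motifs. A RefSeq promoter on GRCm38.p6, 250 bases before to 50 after the start, was found for 34 members. The ETS letters CCGGAAGT occurred on either strand in 10 of the 34 (29.4%), against 3.89% of all 32851 promoters and 9.19% of the 9281 promoters of well-counted genes. They were in 6 of 20 members called higher and in 4 of the 14 others. YY1 letters AAGATGGC were in 4 members (11.8%), against 2.75% and 4.90% of the same sets, the E-box CACGTG in 6 (17.6%), against 7.15% and 10.6%, and CCAAT in 11 (32.4%), against 37.4% and 37.6%. The NRF1 core letters GCATGCGC were in 2 members (Grpel1 and Timm13, 5.88%), against 2.71% and 5.82%. No letters of one motif contain those of another. A match is a string of letters and not a bound site. The windows around the ETS letters, in capitals, are shown for the 3 members called higher whose window lies wholly before the start, 5′ to 3′ on the strand of the gene, with the 40 bases given by their range on GRCm38.p6.
Timm23 (chr14:32201916-32201955, minus strand): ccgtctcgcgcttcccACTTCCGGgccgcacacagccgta
Mtx2 (chr2:74825771-74825810, plus strand): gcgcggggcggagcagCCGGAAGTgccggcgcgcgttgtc
Tomm70a (chr16:57121618-57121657, plus strand): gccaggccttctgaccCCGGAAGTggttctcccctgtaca
The letters begin 48, 25 and 80 bases before the start in Timm23, Mtx2 and Tomm70a, in that order.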

How the data were processed

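Bulk RNA-seq of 6 libraries was used, grouped by the genotype in the labels. The authors deposited counts of reads per gene, whole numbers with no normalization, beside each gene's exonic length in bases. The submitters' processing notes name the build mm10, and the aligner, the counter and the strand setting are not given in the sources used here. Symbols, positions and overlaps came from GENCODE M21, which held 49056 of the 49315 identifiers, and near-identical copies (at least 95% identity over at least 30% of a transcript) were found with BLAST 2.17.0.

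Genotypes were compared as 3 against 3 libraries, following the study's grouping, with the quasi-likelihood test of edgeR 4.0.16 under R 4.3.3 after filterByExpr and TMM scaling. The Benjamini-Hochberg adjustment ran over all genes tested. Standard errors were obtained by dividing the size of the log2 fold change by the root of the F statistic. Ratios within a population used a prior count of 2. The test was tried on simulated counts. Alternatives were DESeq2 1.42.0, other scalings and filters, a population block, leaving out libraries, thinning to equal depth, subtraction of the receptor-gene density times exonic length, and a lowess trend on length (span 0.3). Deviations from the genotype means were weakly correlated within a population (r = 0.143, 0.110 and 0.121 across 9673 genes for LT-HSCs, ST-HSCs and MPPs). The main fit held genotype alone and did not use this pairing. With the populations as a block 20 members were called higher, against 24. Intervals and limits of 3 counts cover counting error only, since reads without molecular identifiers are not independent molecules. On the TMM scale 3 counts are 0.291 to 0.319 CPM in WT and 0.0884 to 0.0958 CPM in ING4-/-.

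All 38 members and their roles were accounted for. Of each list of partners and clients the 3 highest and 3 lowest were named. The symbol rule uses no measured value, but the gene family and the lists were chosen with earlier results of these data known. A further B cell marker is not reported here.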

Additional observations from a re-analysis of the deposited data

Results flagged for a closer look

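For 5 members the pair of libraries in 1 population moved against the other populations, a difference that could not be tested with 1 library per genotype. The log2 ratio of ING4-/- to WT of Pmpca was -0.35 in MPPs and 1.32 and 1.57 in LT-HSCs and ST-HSCs. Mtx1 was at -0.30 in LT-HSCs and at 1.37 and 1.31 in ST-HSCs and MPPs. Timm29 was at -0.18 in MPPs and at 0.24 and 2.14 in LT-HSCs and ST-HSCs. Timm44 was at -0.064 in MPPs and at 0.43 and 0.056 in LT-HSCs and ST-HSCs, and Tomm6, at background in WT, was at -0.18 in LT-HSCs and at 2.24 and 0.21 in ST-HSCs and MPPs.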

How the results depend on the processing

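The member median stayed above 0 in all 22 analyses (0.49 to 1.83), and the number of members called higher ranged from 4 to 32. Against 24 members, 2475 genes and a median of 1.23, DESeq2 size factors gave 14 members, 1342 genes and 0.87, total counts alone gave 14, 1186 and 0.79, and protein-coding genes alone gave 14, 1145 (7440 lower, against 17566) and 0.88. Upper-quartile factors gave 32 members, 4556 genes and 1.83, the DESeq2 Wald test 16, 1555 and 0.86, and thinning to equal depth 17 members and a median of 0.96. At least 10 counts in every library gave 13 members higher and 0 lower, 803 genes higher and 936 lower, and 0.82. Background subtraction gave 11 members, 1109 genes higher and 7592 lower, and 0.73, and with at least 10 counts left 8 members higher and 0 lower, 321 and 472 genes, and 0.64. Removing the length trend gave 4 members higher and 0 lower, 450 and 452 genes, and 0.49. Without ST-HSCs 15 members and 1540 genes were higher, and without MPPs 18 and 1625. Leaving out 1 library at a time gave 18 to 27 members higher, 1 to 2 lower and a median of 1.12 to 1.27. Members called with all libraries and lost without 1 were Tomm70a, Tomm40l, Mtx2, Timm9, Timm8a1, Timm10b, Grpel2 and Immp2l.

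Partners called (12) became 21 with upper-quartile factors, 7 after background subtraction, 2 with at least 10 counts left and 3 without the length trend. Clients called (22) became 14 with total counts, 11 with at least 10 counts in every library, 9 after background subtraction, 2 with at least 10 counts left and 3 without the length trend. Ing4 lost its call with upper-quartile factors (-3.92), after background subtraction (-4.23), without ST-HSCs (-4.47) or without MPPs (-6.00), and without any 1 of 4 libraries (range over all 6 such fits -5.84 to -3.88). With the population as a replicate block Ing4 was at -5.45 and not called, 20 members were higher and the member median was 1.21, and beyond Tomm40l, Mtx2, Timm10b and Grpel2 the block changed no other member's call. Dropping genotype as a block from the comparison of MPPs with LT-HSCs still gave 0 members called.

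Signs turned only for members that were not called, except Timm9. Timm44 was at -0.22 with DESeq2 size factors, -0.30 with total counts, -0.20 with the Wald test, -0.22 with protein-coding genes, -0.37 with at least 10 counts, -0.49 after background subtraction, -0.57 with at least 10 counts left, -0.063 after thinning, -0.48 without the length trend and -0.017 without the WT LT-HSC library (-0.017 to 0.23 over the fits without 1 library). Timm17a was at -0.036 with at least 10 counts and -0.054 with background subtracted and at least 10 counts left. Tomm34 was at -0.077, -0.17 and -0.11 under subtraction, subtraction with 10 counts left and length trend removal. Without the length trend Timmdc1 was at -0.33 and Timm9 at -0.042. The cause of these changes was not tested. Tomm6, Tomm20l, Mtx3 and Timm8a2 have fewer than 10 counts in at least 1 library, which limits the precision of their values.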
